A study of Homo sapiens and Mus musculus with 16 samples.

Results

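The nuclear respiratory chain subunit genes are the genes of the cell nucleus that encode structural subunits of complexes I to IV of the mitochondrial electron transport chain. They were taken from the deposited expression tables by symbol, as names that begin with NDUFA, NDUFB, NDUFC, NDUFS or NDUFV and a number, the SDHA to SDHD genes, names that begin with UQCR, and names that begin with COX4 to COX8. Assembly factors of the NDUFAF series and rows whose estimate had failed were left out. The rule found 176 of 58713 rows in the human table and 68 of 53796 rows in the mouse table. Of the human rows 68 were subunit genes, 104 were pseudogenes, 3 were antisense or divergent transcripts and 1 was the readthrough transcript NDUFC2-KCTD14. Of the mouse rows 66 were subunit genes and 2 were pseudogenes. The mouse gene Cox4i1 had a failed estimate and is therefore missing from the mouse values. By complex, the human genes were 36 of complex I, 4 of complex II, 9 of complex III and 19 of complex IV, and the mouse genes 35, 4, 8 and 19. NDUFA4, named for complex I, was counted with complex IV, where its protein is now placed.

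Complex I takes electrons from NADH and passes them through a chain of iron-sulfur clusters to ubiquinone, while complex II feeds in electrons from succinate and is also an enzyme of the citric acid cycle. Complex III passes electrons from ubiquinol to cytochrome c, and complex IV, cytochrome c oxidase, hands them to oxygen. Complexes I, III and IV pump protons, and the catalytic heart of complex IV and much of the membrane arm of complex I are encoded in mitochondrial DNA, so that these enzymes are built from the products of both genomes. Transcription factors such as NRF1, GABP and YY1 are known to bind promoters of many of the nuclear genes.

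The study compared cells in which PD-L1, the product of CD274, had been knocked out by lentivirus-mediated CRISPR (KO) with cells that carried the wild type gene (WT). This was done in MDA-MB-231, which are human cells of a triple-negative breast cancer grown in DMEM with 10% FBS, and in CT26, mouse colon carcinoma cells grown in an RPMI medium with 10% FBS. Each of the 4 groups, MDA-MB-231 KO, MDA-MB-231 WT, CT26 KO and CT26 WT, had 4 libraries of total RNA. Nothing in the labels tells a clonal knockout from a pooled one or separate cultures from repeat libraries of the same culture, and p-values therefore reflect the spread between libraries, which may be technical. Values were given in FPKM, the fragments of a gene scaled for transcript length and library size, and each line's table had been normalized apart from the other, so that levels are set side by side only within a line.

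CD274 itself had 9.93, 11.6, 8.19 and 12.5 FPKM in the MDA-MB-231 KO libraries, against 12.3, 11.2, 12.5 and 12.8 FPKM in the WT libraries. These groups overlapped, with a log2 fold change of -0.20 (adjusted p = 0.166), and since a CRISPR edit can leave a transcript in place the level does not check the label. On other scales it passed as lower, at -0.40 after upper-quartile scaling (adjusted p = 0.0157). Its mouse counterpart Cd274 had 0.548, 0.445, 0.569 and 0.543 FPKM in the CT26 KO libraries, against 1.504, 1.49, 1.43 and 1.23 FPKM in the WT libraries, and was lower in KO (log2 fold change -0.66, adjusted p = 1.42e-04). Cd274 reached 1 FPKM in the WT libraries only, and these alone let it be tested. Its size near this floor is uncertain: with 0.1 or 5 added to each value in place of 1, it was -1.27 or -0.21. The steps between low FPKM values put the depth of the libraries at 51.1% to 77.9% of WT replicate 1 in MDA-MB-231 KO, against 94.0% to 121% in WT. In CT26 it was 92.7% to 112% in KO replicates 2 to 4, against 80.1% to 114% in WT, while KO replicate 1 was put at 250% by a step that only 12.4% of its low genes shared. VIM, a mesenchymal marker, was at 2462 to 2634 FPKM in MDA-MB-231 KO and 1095 to 1123 FPKM in WT, and ESR1 stayed at or under 0.130 FPKM in all 8 libraries. The epithelial markers KRT8, KRT18 and EPCAM and the receptor gene ERBB2 were lower in MDA-MB-231 KO, at -0.89, -0.29, -1.14 and -0.46, so that 1 of the 5 identity markers tested was higher and 4 were lower. In CT26 2 of 4 were higher and 1 was lower. In CT26 Vim was at 4493 to 4574 FPKM in KO and 3682 to 4035 FPKM in WT. Of the epithelial markers, Epcam at 0 in all 8 libraries, Krt8 at no more than 0.295 FPKM and Vil1 at no more than 0.00730 FPKM were absent or nearly so. Krt18 and Cdx2, also listed for this line, are not given, so these values do not stand for every epithelial marker. Of 12 marker genes of other cell types, 4 were expressed highly enough to test in MDA-MB-231, and 3 in CT26, where the estimate of Tubb3 had failed. Their summed level was 106 to 114 FPKM in MDA-MB-231 KO and 52.3 to 57.3 FPKM in WT, nearly all of it TUBB3, and 70.03 to 74.1 FPKM in CT26 KO and 43.5 to 48.5 FPKM in WT, where Cd14 moved most. The sums hide falls of other markers: COL1A1 and CD14 were lower in MDA-MB-231 KO, at -1.34 and -1.11, and Col1a1 and Pdgfrb were lower in CT26 KO, at -0.70 and -0.24. The T cell marker CD3E was at 0 in all libraries of both lines, and the part of these markers in the results was not tested.

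In the MDA-MB-231 knockout the subunit genes moved in both directions. Of the 61 genes that reached 1 FPKM in at least 4 of the 8 libraries, 30 were higher in KO than in WT, 12 were lower and 19 did not pass the test, which was limma on log2(FPKM + 1) with p-values adjusted over all genes of the line and a threshold of 0.05. Much of the transcriptome differed between these groups: of the 14450 genes tested 68.2% passed, 42.6% as higher and 25.7% as lower. Read against that, 49.2% of the subunit genes were higher and 19.7% were lower. Their median log2 fold change was 0.23, beside 0.18 for all genes tested, and 33 of the 61 lay above the median of all genes. In 29 of them every KO library lay above every WT library, which was so for 39.1% of all genes, and in 12 every KO library lay below, which was so for 23.6%. The middle of the distribution ran from -0.02 at the lower quartile to 0.60 at the upper quartile, with extremes of -0.78 and 1.32. Of the 61 genes 5 were at least 2-fold higher and none was 2-fold lower. Of all 14450 genes tested, 1671 passed as at least 2-fold higher and 1438 as at least 2-fold lower. By complex the medians were 0.16 for complex I, 0.41 for complex II, 0.40 for complex III and 0.27 for complex IV. In bulk libraries such as these, a change in RNA per cell and a change in the share of cells that express a gene cannot be told apart. The other 7 genes, COX4I2, COX6A2, COX6B2, COX7A1, COX7B2, COX8C and NDUFA4L2, never reached the expression limit and are all isoforms of complex IV known from particular tissues or conditions.

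**Figure D1:**
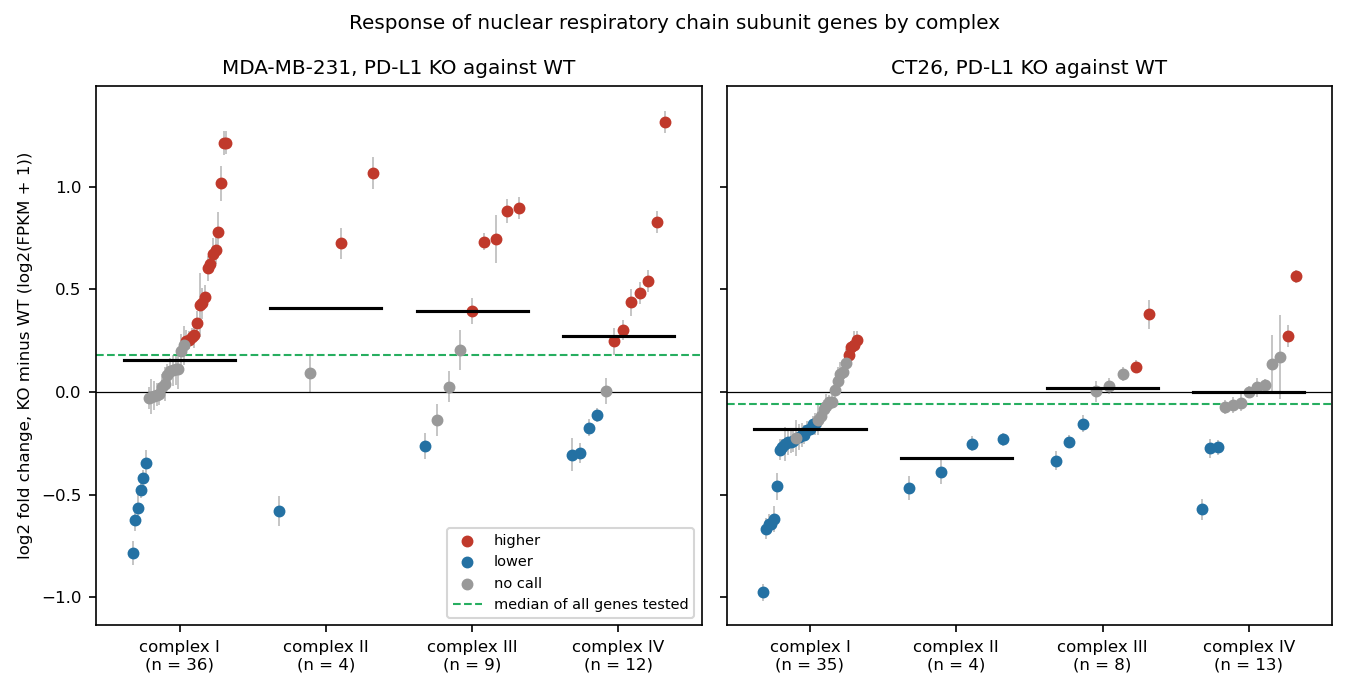
Log2 fold change, KO minus WT, of each tested subunit gene (points, with SE) by complex in MDA-MB-231 (left, 61 genes) and CT26 (right, 60 genes). Red and blue points passed the test, black bars are the medians of a complex, and the dashed lines are the medians of all genes tested, 0.18 and -0.06; complex II spans -0.58 to 1.07 in MDA-MB-231 and lies below 0 throughout in CT26.

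How far these counts can be read as higher or lower depends on the scale. Scaling each library to its upper quartile moved the median of all MDA-MB-231 genes by -0.19, after which 22 subunit genes were higher and 21 lower, or 36.1% and 34.4%, beside 32.8% and 33.6% of all genes on that scale. Quantile normalization moved that median by -0.10 and gave 22 and 22, or 36.1% each way, beside 37.3% higher and 30.1% lower of all genes. Of the calls on the deposited scale, 22 of the 30 higher genes and all 12 lower genes passed in the same direction under each of these settings. Complex I, which holds 36 of the 61 tested genes, had 16 higher and 6 lower on the deposited scale. After upper-quartile scaling it had 10 higher and 12 lower, while complex II stayed at 2 and 1. The 8 genes whose rise did not survive upper-quartile scaling were NDUFA7, NDUFB3, NDUFB5, NDUFB6, NDUFB8, NDUFC2, COX7A2L and COX6C. Relative to all genes, the median of the subunit genes stood at 0.05 on the deposited scale, 0.02 after upper-quartile scaling and -0.11 after quantile normalization.

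Among the catalytic core of complex I, most of whose subunits carry the flavin or iron-sulfur clusters or line the quinone site, 3 of 7 were higher in MDA-MB-231 KO, 1 was lower and 3 did not pass. NDUFS1, the largest subunit of the NADH-oxidizing module (chr2:206114817-206159603, minus strand, GRCh38), had 59.8, 76.5, 68.2 and 60.3 FPKM in the KO libraries, against 31.6, 29.9, 33.1 and 33.8 FPKM in the WT libraries. No KO library came near the WT range, and the log2 fold change was 1.02 ± 0.09 (SE, adjusted p = 8.07e-06). NDUFS3, which helps to form the arm leading to the quinone site, averaged 260.0 ± 11.6 FPKM in KO and 163 ± 19.3 FPKM in WT (SD, n = 4 each), for a log2 fold change of 0.67 (adjusted p = 6.55e-05). NDUFS8, which carries a pair of iron-sulfur clusters on the way to ubiquinone (chr11:68030617-68036644, plus strand), went the other way, with 239, 225, 229.8 and 219 FPKM in the KO libraries, against 316, 326, 319 and 308 FPKM in the WT libraries. Its groups did not overlap and the log2 fold change was -0.48 ± 0.04 (SE, adjusted p = 6.98e-06). The NADH-binding subunit NDUFV1 averaged 224 ± 14.99 FPKM in KO and 225 ± 7.45 FPKM in WT, and NDUFV2 and NDUFS7 were as close between groups, with log2 fold changes of -0.01, -0.02 and -0.01 (adjusted p = 0.888, 0.828 and 0.838). After upper-quartile scaling these 3 stood at -0.23, -0.23 and -0.23 and passed as lower (adjusted p = 0.0101, 0.00974 and 0.00552). The ratio of NDUFS1 to NDUFS8, which no scaling of a library can change, was 0.251, 0.339, 0.297 and 0.276 in the KO libraries, against 0.10004, 0.0915, 0.104 and 0.1098 in the WT libraries.

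Of the 29 accessory subunits of complex I, which surround the core and stabilize it, 13 were higher in MDA-MB-231 KO, 5 were lower and 11 did not pass. NDUFA9, an accessory subunit at the joint between the matrix and membrane arms (chr12:4649095-4694317, plus strand), had 268, 278, 257 and 264 FPKM in the KO libraries, against 104, 121, 112 and 122 FPKM in the WT libraries. NDUFB9, of the far end of the membrane arm, had 124, 127, 125 and 111 FPKM in the KO libraries, against 50.4, 55.2, 50.1 and 51.7 FPKM in the WT libraries. Both were more than 2-fold higher, with log2 fold changes of 1.21 ± 0.06 (SE, adjusted p = 2.30e-07) and 1.21 ± 0.06 (SE, adjusted p = 2.34e-07). NDUFA12 and NDUFA10 followed, with log2 fold changes of 0.78 and 0.69. The largest fall was that of NDUFB2, a small subunit of the membrane arm (chr7:140690777-140722790, plus strand), which had 125, 129, 119.9 and 132 FPKM in the KO libraries, against 206, 241, 210.4 and 217 FPKM in the WT libraries. Every KO library lay below every WT library, and the log2 fold change was -0.78 ± 0.06 (SE, adjusted p = 3.43e-06). NDUFA8, which lies on the side of the intermembrane space (chr9:122144058-122159819, minus strand), had 59.2, 55.5, 53.8 and 61.01 FPKM in the KO libraries, against 86.7, 92.4, 91.2 and 84.6 FPKM in the WT libraries. Its log2 fold change was -0.62 ± 0.05 (SE, adjusted p = 1.10e-05), and that of NDUFA6, which holds the acyl carrier protein on the matrix arm, was -0.56 ± 0.08 (SE, adjusted p = 2.07e-04). NDUFB11 and NDUFA1, both on the X chromosome, were lower as well, at -0.42 and -0.35. NDUFB5 passed as higher although its groups overlapped (189 ± 42.4 FPKM in KO and 139 ± 20.4 FPKM in WT, adjusted p = 0.0379).

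Complex II, the only complex made wholly from nuclear genes, was split within its 4 members. SDHD, a membrane anchor (chr11:112086773-112120013, plus strand), had 120.4, 139, 115 and 107 FPKM in the KO libraries, against 57.7, 53.3, 57.1 and 58.5 FPKM in the WT libraries. SDHB, the iron-sulfur subunit (chr1:17018722-17054170, minus strand), had 338, 340.5, 341 and 326 FPKM in the KO libraries, against 173, 226, 211 and 206 FPKM in the WT libraries. SDHA, the flavin-bearing subunit that oxidizes succinate (chr5:218241-256700, plus strand), had 87.4, 87.004, 72.4 and 77.2 FPKM in the KO libraries, against 114, 129, 126 and 116 FPKM in the WT libraries. None of these 3 genes had overlapping groups, and the log2 fold changes were 1.07 ± 0.08 (SE, adjusted p = 3.34e-06), 0.72 ± 0.08 (SE, adjusted p = 3.27e-05) and -0.58 ± 0.07 (SE, adjusted p = 1.22e-04). SDHC, the other anchor, averaged 80.2 ± 7.45 FPKM in KO and 75.3 ± 8.44 FPKM in WT and did not pass (log2 fold change 0.09, adjusted p = 0.412). The ratio of SDHB to SDHA was 3.86, 3.91, 4.71 and 4.23 in the KO libraries, against 1.52, 1.75, 1.67 and 1.78 in the WT libraries. The closely similar SDHA pseudogene SDHAP1 was listed at 2.69 to 8.26 FPKM in KO and 7.15 to 8.53 FPKM in WT, and reads of SDHA and its copies may be mixed.

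Of the 9 genes of complex III, 5 were higher in MDA-MB-231 KO and 1 was lower. UQCRC1, a core protein that faces the matrix (chr3:48599002-48610976, minus strand), had 358, 352, 353 and 377 FPKM in the KO libraries, against 209, 214, 214 and 229 FPKM in the WT libraries. UQCRC2, its partner (chr16:21952660-21983660, plus strand), had 153, 133, 134 and 142 FPKM in the KO libraries, against 80.9, 74.4, 75.2 and 73.2 FPKM in the WT libraries. UQCRH, the hinge protein that helps cytochrome c dock (chr1:46303631-46316776, plus strand), had 362, 379, 354 and 342 FPKM in the KO libraries, against 183, 211, 189 and 189 FPKM in the WT libraries. All 3 had KO libraries well above every WT library, with log2 fold changes of 0.73 ± 0.04 (SE, adjusted p = 7.44e-07), 0.88 ± 0.06 (SE, adjusted p = 1.68e-06) and 0.90 ± 0.05 (SE, adjusted p = 9.53e-07). The Rieske iron-sulfur protein UQCRFS1 was higher by a smaller step, at 26.8 ± 1.39 FPKM in KO and 20.2 ± 1.05 FPKM in WT (log2 fold change 0.40 ± 0.06 (SE, adjusted p = 4.25e-04)). UQCRHL, a retrogene copy of UQCRH, rose by 0.74 at a level of 8.498 FPKM in KO and 4.697 FPKM in WT, but its reads may be those of UQCRH, which is many times more abundant. The small subunit UQCR11 was lower, at 264 ± 19.2 FPKM in KO and 317 ± 19.6 FPKM in WT (log2 fold change -0.26 ± 0.06 (SE, adjusted p = 0.00525)), whereas UQCRQ, UQCR10 and UQCRB did not pass, at 0.20, 0.03 and -0.14.

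In complex IV 7 of the 12 tested genes were higher and 4 were lower, and COX5B, at 148 ± 12.8 FPKM in KO and 147 ± 4.33 FPKM in WT, was the one that did not pass. COX4I1, the broadly expressed form of subunit IV (chr16:85798633-85807044, plus strand), had the largest change of any subunit gene, with 807, 916, 785 and 803 FPKM in the KO libraries, against 323, 335, 346 and 322 FPKM in the WT libraries. The lowest KO library was more than 2-fold above the highest WT library, and the log2 fold change was 1.32 ± 0.05 (SE, adjusted p = 1.07e-07). COX5A, which binds next to it on the matrix side (chr15:74919791-74938168, minus strand), had 408, 384, 371 and 366 FPKM in the KO libraries, against 218, 229, 201 and 214 FPKM in the WT libraries, a log2 fold change of 0.83 ± 0.05 (SE, adjusted p = 1.33e-06). COX6A1, COX7C and COX6B1 rose by 0.54, 0.48 and 0.44. COX7A2, the form of subunit VIIa used outside heart and muscle, had 524, 559, 552 and 511 FPKM in the KO libraries, against 621, 708, 653 and 657 FPKM in the WT libraries. COX7A2L, a relative of COX7A2 that takes part in joining complexes III and IV, had 95.1, 103, 98.3 and 97.3 FPKM in the KO libraries, against 76.1, 84.98, 77.7 and 79.9 FPKM in the WT libraries. These relatives moved in opposite directions on the deposited scale, by -0.30 ± 0.05 (SE, adjusted p = 6.36e-04) for COX7A2 and 0.30 ± 0.05 (SE, adjusted p = 4.91e-04) for COX7A2L, although the rise of COX7A2L did not pass after upper-quartile scaling (0.09, adjusted p = 0.0773). Their ratio, COX7A2L over COX7A2, was 0.181, 0.185, 0.178 and 0.1904 in the KO libraries, against 0.123, 0.1201, 0.119 and 0.122 in the WT libraries. COX7B, NDUFA4 and COX8A were lower, by -0.31, -0.17 and -0.11 on the log2 scale, the last a small shift between groups that did not overlap (693 ± 17.9 FPKM in KO and 748 ± 15.6 FPKM in WT).

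**Figure D2:**
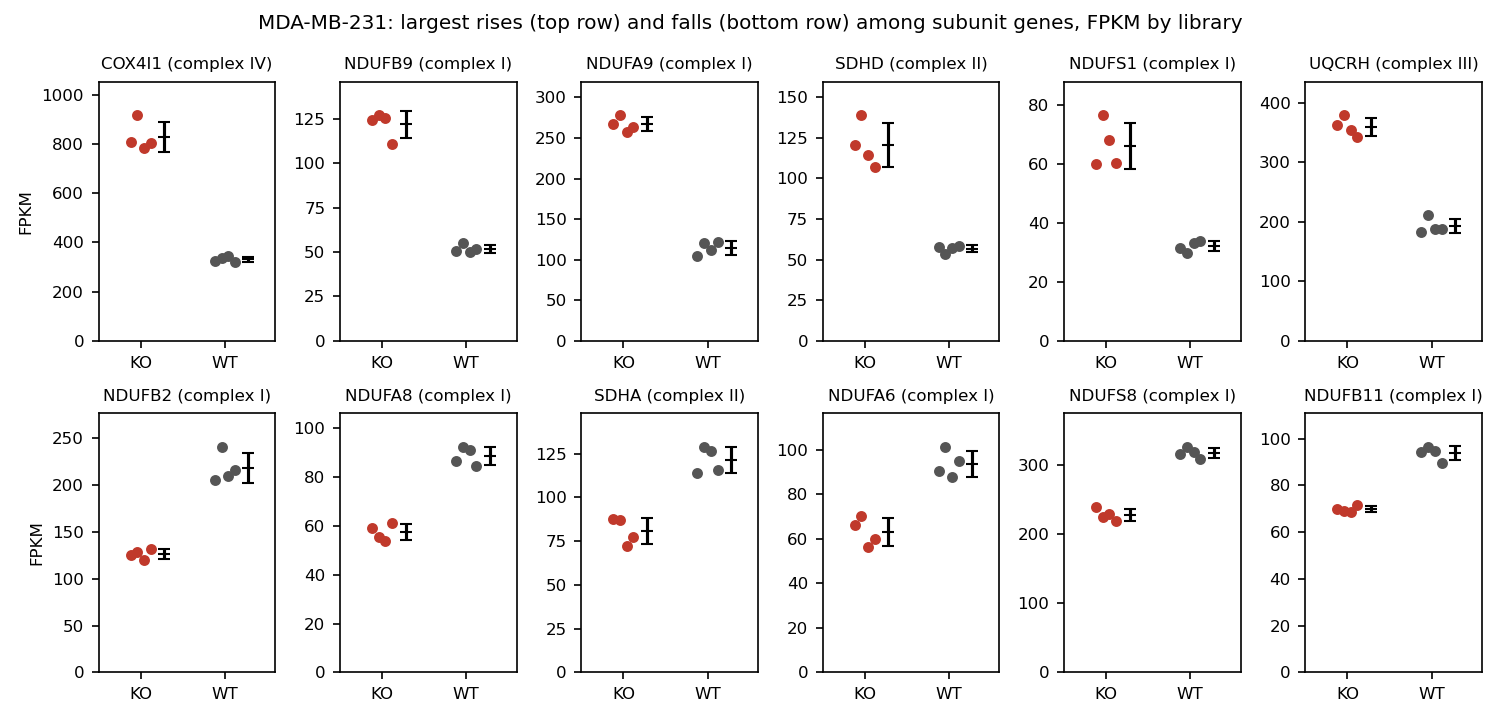
FPKM of the 6 subunit genes with the largest rises (top row) and the 6 with the largest falls (bottom row) in each MDA-MB-231 library, KO left and WT right, with mean and SD beside the points (n = 4 each). In all 12 panels the KO and WT libraries are apart, from COX4I1 at 828 and 332 FPKM on average to NDUFB11 at 69.8 and 93.8 FPKM.

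Summed over its genes, the FPKM level of complex I was 114% of the WT level in MDA-MB-231 KO, that of complex II 135%, that of complex III 124% and that of complex IV 122%. These sums are on the deposited scale only, where the median log2 fold change of all genes was 0.18. Upper-quartile scaling moved that median by -0.19. Abundant genes weigh most in a sum, such as COX4I1 in complex IV, with a log2 fold change of 1.32. The highest levels by FPKM in KO were those of COX7C and COX4I1, at 1045 and 828 FPKM, and in WT those of COX7C and COX8A, each at 748 FPKM, and the genes kept nearly the same order of levels in both groups (Spearman's rho 0.90 over 61 genes, which share the libraries). Within a group the median SD between libraries was 6.70% of the mean in KO and 5.94% in WT.

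The promoters of these genes show which sequences the members share apart from their names. RefSeq promoters on GRCh38.p14, 250 bases before to 50 bases after the start, were matched by symbol for 55 of the 68 human genes. The motif GCGCANGCG, the core of the NRF1 site, was found on either strand in 17 of the 55 genes, or 30.9%, beside 9.02% of all 27305 genes with a promoter. CCGGAAG, the core of an ETS site as bound by GABP, was found in 15, or 27.3%, beside 12.2%, and AAGATGGCG, the core of the YY1 site, in 8, or 14.5%, beside 2.14%. At least 1 of the 3 was present in 33 of the 55 genes, or 60%, beside 20.5% of all genes. A match is a stretch of letters and does not show that a factor binds there. Genes with the NRF1 core went both ways in MDA-MB-231, with 7 higher, 3 lower and 6 that did not pass, and with the ETS core 9 were higher, 3 lower and 3 did not pass. The 4 promoters shown belong to the genes with the largest rises and falls among those with 1 promoter entry that holds a motif, and capitals mark the motifs on either strand. COX4I1 (chr16:85799445-85799744, plus strand) holds the ETS core read on the other strand, NDUFA9 (chr12:4648864-4649163, plus strand) the NRF1 core read on the other strand and the YY1 core, NDUFA8 (chr9:122159730-122160029, minus strand) overlapping NRF1 cores, and SDHA (chr5:218070-218369, plus strand) 4 NRF1 cores.
COX4I1: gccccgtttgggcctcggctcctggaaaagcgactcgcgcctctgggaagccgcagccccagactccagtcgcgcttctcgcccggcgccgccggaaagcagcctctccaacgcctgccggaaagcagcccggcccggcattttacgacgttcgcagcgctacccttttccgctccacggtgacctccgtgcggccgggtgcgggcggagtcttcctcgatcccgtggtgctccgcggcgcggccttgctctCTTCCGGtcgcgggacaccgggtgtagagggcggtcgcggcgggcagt
NDUFA9: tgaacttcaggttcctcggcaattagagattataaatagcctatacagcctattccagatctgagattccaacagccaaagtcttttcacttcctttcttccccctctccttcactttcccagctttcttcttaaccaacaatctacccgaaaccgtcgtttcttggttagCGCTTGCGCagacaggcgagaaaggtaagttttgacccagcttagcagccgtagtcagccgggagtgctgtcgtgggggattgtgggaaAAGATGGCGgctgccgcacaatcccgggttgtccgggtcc
NDUFA8: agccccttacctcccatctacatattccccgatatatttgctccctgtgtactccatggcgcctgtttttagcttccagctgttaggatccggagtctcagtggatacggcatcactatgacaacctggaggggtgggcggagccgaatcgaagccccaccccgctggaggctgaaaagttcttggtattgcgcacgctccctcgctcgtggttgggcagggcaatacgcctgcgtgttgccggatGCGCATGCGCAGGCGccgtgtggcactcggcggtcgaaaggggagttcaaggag
SDHA: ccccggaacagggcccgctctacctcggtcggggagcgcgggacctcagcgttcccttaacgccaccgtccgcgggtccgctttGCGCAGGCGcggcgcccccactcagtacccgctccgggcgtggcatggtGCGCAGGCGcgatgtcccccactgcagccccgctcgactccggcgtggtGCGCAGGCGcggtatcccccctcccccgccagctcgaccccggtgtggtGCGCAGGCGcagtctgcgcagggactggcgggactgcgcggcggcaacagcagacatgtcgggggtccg

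SDHA and NDUFA8, with the NRF1 core in capitals, were lower in MDA-MB-231 KO, while NDUFA9 and SDHD, which hold it too, were higher. The median log2 fold change was 0.15 for tested genes with the NRF1 core and 0.23 for those without, and 0.54 with the ETS core and 0.11 without. These are descriptions of the genes that had a promoter entry, and no test was made of them.

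In CT26 more subunit genes were lower in KO than were higher, with all genes of complex II and 19 of the 35 of complex I among them. Of 60 genes tested 8 were higher in KO, 29 were lower and 23 did not pass. Of all 11342 genes tested in this line 55.8% passed, 22.3% as higher and 33.5% as lower, against 13.3% and 48.3% of the subunit genes. Their median log2 fold change was -0.15, beside -0.06 for all genes tested, and 36 of the 60 lay below the median of all genes. In 28 every KO library lay below every WT library, which was so for 31.1% of all genes, and in 9 every KO library lay above, which was so for 20.3%. Changes were small, from -0.97 to 0.56, and none reached 2-fold. Few of all 11342 genes did so, 220 as higher and 217 as lower. After upper-quartile scaling, which moved the median of all genes by 0.08, 16 were higher and 21 lower, or 26.7% and 35%, beside 29.2% and 25.04% of all genes, and these 21 were all among the 29. For complex I this setting gave 7 higher and 12 lower, in place of 4 and 19, and for complex II it still gave 4 lower. By complex the medians were -0.18 for complex I, -0.32 for complex II, 0.02 for complex III and -0.00 for complex IV. The genes Cox4i2, Cox6b2, Cox7b2, Cox8b, Cox8c and Ndufa4l2 did not reach the expression limit.

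Of the 7 catalytic core subunits of complex I, 6 were lower in CT26 KO and none was higher. Ndufs1 had 59.3, 52.8, 54.3 and 60.2 FPKM in the KO libraries, against 89.3, 86.2, 92.8 and 92.9 FPKM in the WT libraries. Ndufs7, which holds the last iron-sulfur cluster before ubiquinone (chr10:80249121-80256794, mm10), had 72.2, 72.02, 69.04 and 70.5 FPKM in the KO libraries, against 106, 117, 107 and 115 FPKM in the WT libraries. In both genes the KO libraries lay wholly below the WT libraries, and the log2 fold changes were -0.67 ± 0.05 (SE, adjusted p = 1.34e-05) and -0.64 ± 0.04 (SE, adjusted p = 3.97e-06). Ndufv1 and Ndufv2 were lower by smaller steps, -0.21 ± 0.06 (SE, adjusted p = 0.0157) and -0.18 ± 0.02 (SE, adjusted p = 2.75e-04). Ndufs8 passed narrowly with overlapping groups (84.7 ± 4.73 FPKM in KO and 94.4 ± 5.12 FPKM in WT, log2 fold change -0.16 ± 0.05 (SE, adjusted p = 0.03396)), and lost its call when any of 4 single libraries was left out, KO replicate 3 or 4 or WT replicate 2 or 4 (adjusted p = 0.0799 to 0.0838). It did not pass either with no filter on low values (adjusted p = 0.0663), after upper-quartile scaling (-0.06, adjusted p = 0.255) or after quantile normalization (adjusted p = 0.176). Ndufs3 did not pass (-0.12, adjusted p = 0.101), though it did without WT replicate 2 (-0.15, adjusted p = 0.0451). Ndufv1 did not pass after upper-quartile scaling or quantile normalization (adjusted p = 0.145 and 0.126). Centred on the genes around it, as described below, Ndufv2 was at -0.02 and did not pass (adjusted p = 0.444). Ndufv1 and Ndufs8 passed as lower when centred, at -0.32 and -0.26 (adjusted p = 0.00299 and 0.00431).

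Among the 28 accessory subunits 13 were lower in CT26 KO, 4 were higher and 11 did not pass. Ndufb11, a subunit of the membrane arm encoded on the X chromosome, had 53.2, 54.8, 55.5 and 56.03 FPKM in the KO libraries, against 114, 106, 103 and 112 FPKM in the WT libraries. Its KO libraries lay close together and far below the WT libraries. Its log2 fold change of -0.97 ± 0.04 (SE, adjusted p = 6.27e-07) was the largest of any tested subunit gene in this line. Ndufb8, also of the membrane arm (chr19:44516957-44555440), had 312, 331, 316 and 296 FPKM in the KO libraries, against 508, 492, 452 and 511 FPKM in the WT libraries. Ndufa10, which faces the matrix (chr1:92439010-92473860), averaged 289 ± 23.2 FPKM in KO and 397 ± 25.2 FPKM in WT. Both were lower without overlap, by -0.64 ± 0.05 (SE, adjusted p = 1.28e-05) and -0.46 ± 0.07 (SE, adjusted p = 4.45e-04). The accessory subunits that were higher were Ndufa2, Ndufb7, Ndufa3 and Ndufv3, with log2 fold changes of 0.25, 0.23, 0.22 and 0.18. Ndufa3, the most abundant of these 4, had 499, 497, 500.2 and 522 FPKM in the KO libraries, against 440.4, 434, 415 and 444 FPKM in the WT libraries.

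All 4 complex II genes were lower in CT26 KO. Sdha had 162, 159.6, 164 and 154 FPKM in the KO libraries, against 224, 194, 227 and 197 FPKM in the WT libraries. Sdhc (chr1:171127165-171150603) had 152, 164, 153 and 149 FPKM in the KO libraries, against 213, 197, 209 and 238 FPKM in the WT libraries. Sdhb and Sdhd averaged 134 ± 2.87 FPKM in KO and 160.1 ± 7.004 FPKM in WT and 122 ± 3.11 FPKM in KO and 143 ± 4.05 FPKM in WT. No KO library of any of the 4 reached the lowest WT library, and the log2 fold changes were -0.39 ± 0.06 (SE, adjusted p = 5.61e-04), -0.47 ± 0.06 (SE, adjusted p = 2.10e-04), -0.25 ± 0.04 (SE, adjusted p = 5.02e-04) and -0.23 ± 0.03 (SE, adjusted p = 3.51e-04). The sum of the 4 was 78.4% of the WT level in KO, against 89.4% for the genes of complex I, 100.5% for complex III and 101.3% for complex IV. These sums are on the deposited scale only, where the median log2 fold change of all genes was -0.06.

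Complexes III and IV were mixed in CT26. In complex III Uqcr10, a small subunit (chr11:4701973-4704342), had 293, 286, 286 and 290.0 FPKM in the KO libraries, against 232, 241, 189.8 and 229 FPKM in the WT libraries. It was higher, at 0.38 ± 0.07 (SE, adjusted p = 0.00178), as was the Rieske protein Uqcrfs1, at 0.12 ± 0.03 (SE, adjusted p = 0.00921). The core proteins Uqcrc1 and Uqcrc2 and the ubiquinone-binding subunit Uqcrb were lower, by -0.33 ± 0.05 (SE, adjusted p = 4.06e-04), -0.15 ± 0.04 (SE, adjusted p = 0.0121) and -0.24 ± 0.03 (SE, adjusted p = 3.06e-04). Uqcrc1 (chr9:108936633-108949623) had 142, 145, 127 and 137 FPKM in the KO libraries, against 177, 175, 177 and 165 FPKM in the WT libraries. Uqcrc2 stood at -0.06 after upper-quartile scaling and did not pass (adjusted p = 0.198).

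In complex IV 2 of the 13 tested genes were higher, 3 were lower and 8 did not pass. Cox8a, the broadly expressed form of subunit VIII (chr19:7215158-7217616), had 1007, 1017, 975 and 1014 FPKM in the KO libraries, against 679, 689.6, 642 and 703 FPKM in the WT libraries. This was the largest rise of any tested subunit gene in this line, 0.56 ± 0.03 (SE, adjusted p = 2.92e-06). Cox7b was higher too, at 0.27 ± 0.05 (SE, adjusted p = 0.00284). Cox5b, the zinc-binding subunit (chr1:36691449-36693681), had 376, 371, 323 and 348 FPKM in the KO libraries, against 507, 531, 521 and 546 FPKM in the WT libraries. It was lower by -0.57 ± 0.05 (SE, adjusted p = 3.29e-05), and Cox5a and Cox7a2 followed at -0.27 ± 0.04 (SE, adjusted p = 2.68e-04) and -0.27 ± 0.05 (SE, adjusted p = 0.00145). The ratio of Cox8a to Cox5b was 2.67, 2.74, 3.02 and 2.91 in the KO libraries, against 1.34, 1.299, 1.23 and 1.29 in the WT libraries. Cox6b1 had the highest level of any tested subunit gene, while the level of Cox4i1, whose estimate had failed, is unknown. It averaged 1429 ± 37.6 FPKM in KO and 1429.9 ± 34.6 FPKM in WT. The log2 fold change of Cox6b1 was -0.00 and became 0.09 after upper-quartile scaling (adjusted p = 0.0148). The isoforms Cox7a1, Cox6a2, Cox6a1 and Cox7a2l and the subunit Ndufa4 did not pass, with log2 fold changes of 0.14, 0.17, 0.03, -0.05 and -0.07. On other settings Cox6a1 passed as higher, at 0.13 after upper-quartile scaling (adjusted p = 0.00358), and Ndufa4 passed as lower without WT replicate 3 (-0.10, adjusted p = 0.0329). Centred on the genes around them, as described below, both passed as higher in limma, Cox6a1 at 0.17 (adjusted p = 0.00291) and Ndufa4 at 0.10 (adjusted p = 0.0437). Cox7a1 and Cox6a2, forms known from heart and muscle, were near 10.6 and 1.17 FPKM in KO and 9.39 and 0.878 FPKM in WT, far below their broadly expressed relatives Cox7a2 and Cox6a1.

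**Figure D3:**
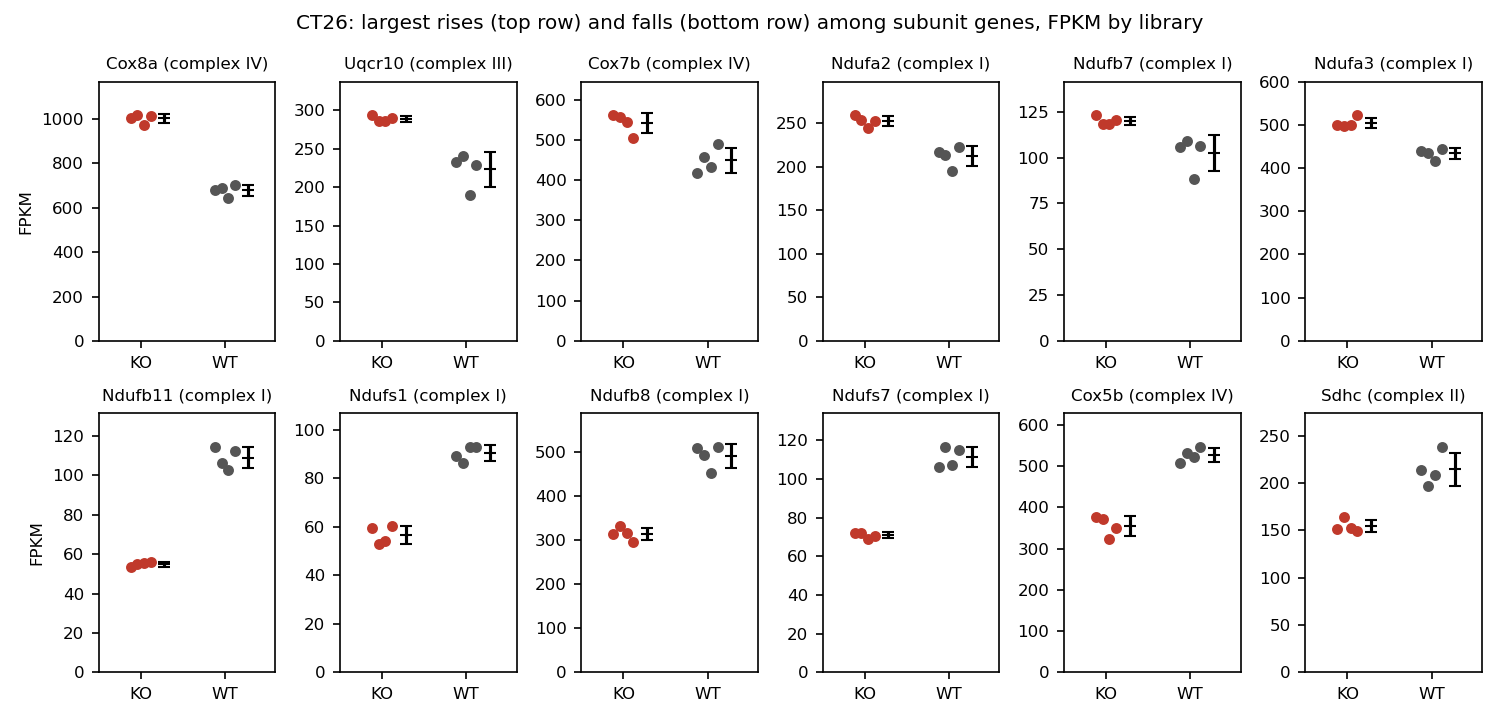
FPKM of the 6 subunit genes with the largest rises (top row) and 6 of those with the largest falls (bottom row) in each CT26 library, KO left and WT right, with mean and SD beside the points (n = 4 each). The fall of Ndufb11 to 54.9 FPKM in KO, against 109 FPKM in WT, is the widest gap as a fold change, and the rises are smaller in fold, such as Ndufb7 at 119.9 and 102 FPKM.

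The subunit genes were next set beside the genes around them on their chromosomes. The reference for each gene was the median log2 fold change of the tested genes in its window, the fixed stretch of 20 Mb of the chromosome that holds it, with the gene itself counted. These windows held 34 to 463 genes in MDA-MB-231 and 36 to 319 in CT26. Window medians ran from -0.55 to 0.99 in MDA-MB-231 and from -0.53 to 0.28 in CT26. Members and windows varied together, with Pearson's r 0.56 and Spearman's rho 0.58 over 61 genes in MDA-MB-231 and 0.63 and 0.53 over 60 genes in CT26; neighbouring members share windows and all share the libraries. When each gene was centred on its window, 25 members were higher and 13 lower in MDA-MB-231, and 13 were higher and 17 lower in CT26. As shares these were 41.0% and 21.3% in MDA-MB-231, beside 31.7% and 31.1% of all genes centred in the same way, and 21.7% and 28.3% in CT26, beside 22.1% and 22.5%. Of the original calls 23 of the 30 higher and 10 of the 12 lower in MDA-MB-231 passed in the same direction, and 6 of the 8 higher and 16 of the 29 lower in CT26.

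**Figure D4:**
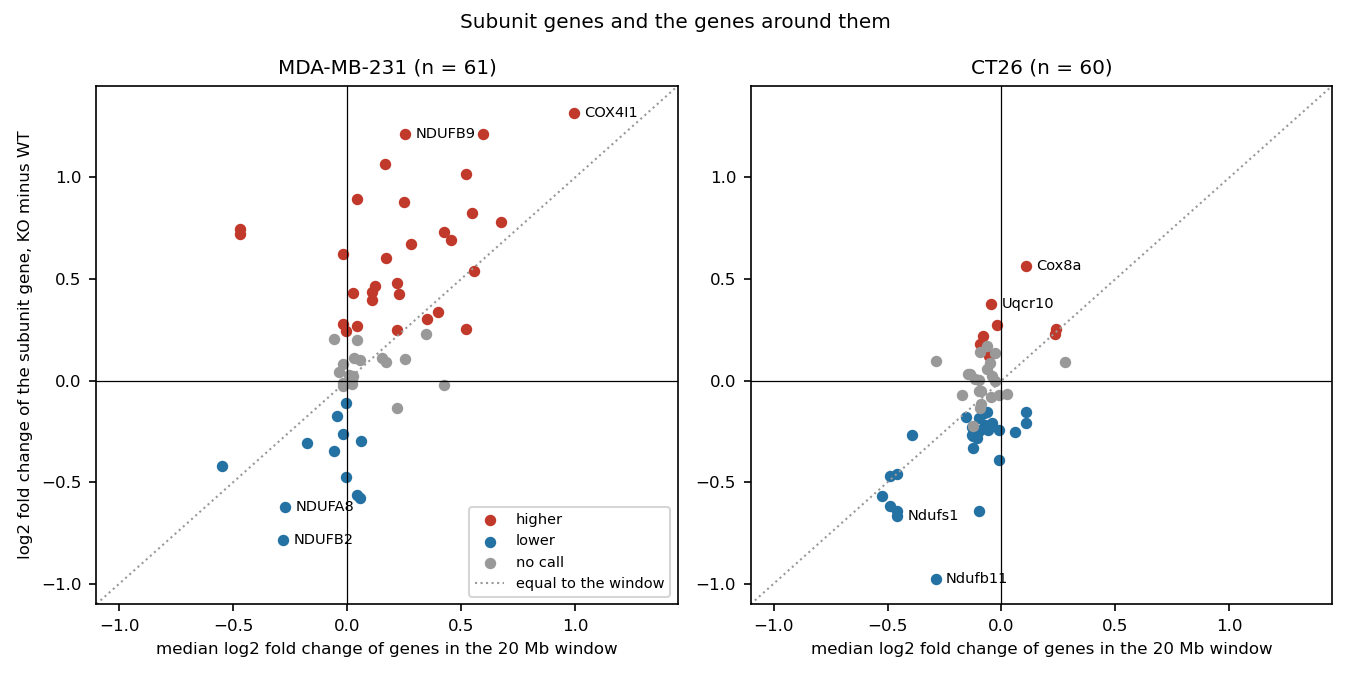
Log2 fold change of each subunit gene, KO minus WT (vertical axis), against the median log2 fold change of the tested genes in the 20 Mb window that holds it (horizontal axis), in MDA-MB-231 (left) and CT26 (right). COX4I1, at 1.32, lies in the window with the highest median, 0.99, and a group of CT26 genes at the lower left lies on or near the dotted line of equal change.

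COX4I1, in a window with a median of 0.99 on chromosome 16, kept a rise of 0.32 (adjusted p = 8.06e-04) above its neighbours. COX6A1, NDUFA12 and COX7A2L, in windows of 0.56, 0.68 and 0.35, were left with -0.02, 0.10 and -0.05 and no longer passed. SDHB lay in a stretch of chromosome 1 with a median of -0.47 and stood 1.20 above it (adjusted p = 1.62e-06). NDUFB9, SDHD, UQCRH and NDUFA13 still stood far above their neighbours, at 0.96, 0.90, 0.85 and 0.64. The falls of SDHA, NDUFA6 and NDUFS8 also stayed, at -0.63, -0.61 and -0.47. NDUFB3 and NDUFB11 passed in opposite directions on the 2 scales, NDUFB3 at 0.25 and centred at -0.27, and NDUFB11 at -0.42 and centred at 0.13.

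In CT26 all 6 tested members on chromosome 1 were lower, by 0.27 to 0.67 on the log2 scale, and their windows had medians of -0.53 to -0.39. Centred on these windows Ndufs1 passed as lower at -0.21 (adjusted p = 0.0105), and Ndufb3 passed as higher at 0.12 (adjusted p = 0.0386). Sdhc at 0.02 and Cox5b at -0.04 did not pass. Ndufa10, at -0.46, was itself the median gene of its window of 89 genes. Its centred value of -0.00 was therefore fixed in advance and is no comparison with its neighbours. Ndufb8, on chromosome 19 in a window of -0.46, kept -0.18 (adjusted p = 0.0149). Ndufb11, Ndufs7 and Sdha kept -0.69, -0.54 and -0.38, and the rises of Cox8a and Uqcr10 kept 0.46 and 0.42. The rises of Ndufa2 and Ndufb7 were left with 0.01 and -0.00, in windows of 0.24 and 0.24. What moved the windows was not tested.

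The lines were compared through 58 subunit genes tested in both. The difference between the MDA-MB-231 response and the CT26 response was tested with limma for a size above 2-fold, over all 8667 gene pairs with the same symbol in both lines. Of all pairs 11.7% passed, 7.34% with the MDA-MB-231 response above that of CT26, and of the 58 subunit pairs 4 passed, or 6.90%, all with MDA-MB-231 above. They were NDUFS1, at 1.02 in MDA-MB-231 and -0.67 in CT26, NDUFB9 at 1.21 and -0.21, NDUFA9 at 1.21 and -0.19, and SDHD at 1.07 and -0.23. The differences were 1.68 ± 0.10, 1.42 ± 0.07, 1.40 ± 0.07 and 1.30 ± 0.09 (adjusted p = 4.55e-05, 2.36e-04, 4.21e-04 and 0.0158). After upper-quartile scaling, quantile normalization or centring on windows, 1 pair passed in each case. For a difference of any size 43 of the 58 pairs passed, 34 of them with MDA-MB-231 above, or 74.1% and 58.6%, beside 72.2% and 50.1% of all pairs. The median difference was 0.33 over the subunit pairs, beside 0.30 over all pairs.

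Calls in the 2 lines were opposite for 17 of the 58 genes, or 29.3%, beside 23.4% of all pairs. Of these, 15 were higher in MDA-MB-231 KO and lower in CT26 KO, or 25.9% of the 58, beside 17.9% of all pairs, among them COX5A, NDUFA9, NDUFA10, NDUFB8, NDUFB9, NDUFS1, SDHB, SDHD, UQCRC1 and UQCRC2, and COX7B and COX8A were the reverse. The 6 genes called in the same direction, or 10.3%, beside 20.6% of all pairs, were UQCRFS1, higher in both, and COX7A2, NDUFA8, NDUFB11, NDUFS8 and SDHA, lower in both. NDUFC1, NDUFS5, NDUFS6 and UQCRQ passed in neither line. The opposite calls depend in part on the scale. Among the 15, NDUFB3, NDUFB5, NDUFB8 and NDUFC2 did not pass in MDA-MB-231 after upper-quartile scaling. In CT26 Ndufa5, Ndufa9 and Uqcrc2 did not pass on that scale (limma, adjusted p = 0.0620, 0.0541 and 0.198). The rest of the 15 kept both calls. By complex the median difference between the lines was 0.26 for the 35 pairs of complex I, 0.77 for the 4 of complex II, 0.22 for the 8 of complex III and 0.35 for the 11 of complex IV.

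**Figure D5:**
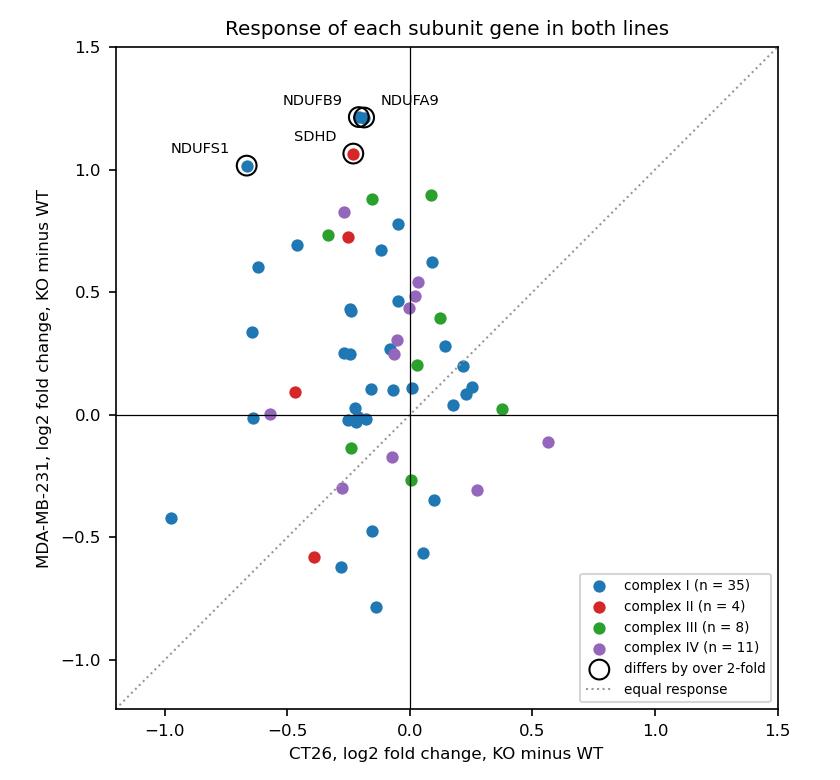
Log2 fold change, KO minus WT, of the 58 subunit genes tested in both lines, with MDA-MB-231 on the vertical axis and CT26 on the horizontal axis, coloured by complex. The 4 circled genes differ between the lines by more than 2-fold, and 42 of the 58 points lie above the dotted line of equal response.

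Genes that work with the subunits were described from lists of the pathway. Of all genes tested, 42.6% were higher and 25.7% lower in MDA-MB-231 KO, and 22.3% and 33.5% in CT26 KO. Counts near these shares do not set a list apart from other genes. Of the 15 assembly factors of complex I tested in each line, 14 were higher and none lower in MDA-MB-231 KO, and 1 was higher and 4 were lower in CT26 KO. NDUFAF4, one of these factors, averaged 87.2 ± 4.29 FPKM in KO and 29.9 ± 2.33 FPKM in WT in MDA-MB-231 (log2 fold change 1.52, adjusted p = 1.61e-07) and 26.5 ± 1.07 FPKM in KO and 35.6 ± 0.884 FPKM in WT in CT26 (-0.41, adjusted p = 4.90e-05). Nubpl, which inserts iron-sulfur clusters into complex I, was the assembly factor that rose in CT26 (0.87). Among assembly factors of complexes II to IV, 23 of 36 were higher and 5 lower in MDA-MB-231 KO, and 11 of 33 were higher and 13 lower in CT26 KO. As shares these were 63.9% and 13.9% in MDA-MB-231, and 33.3% and 39.4% in CT26. BCS1L, which inserts the Rieske protein into complex III, averaged 114 ± 6.43 FPKM in KO and 37.5 ± 2.77 FPKM in WT in MDA-MB-231 (1.58, adjusted p = 1.07e-07), and SCO1 and COX10, a copper chaperone and a haem-modifying enzyme for complex IV, rose by 1.24 and 1.22. In CT26 Coa5 and Surf1, both needed for complex IV, fell by 0.81 and 0.77 on the log2 scale, and Coa4 and Pet100 rose by 0.89 and 0.84.

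The subunits of ATP synthase, complex V, were higher for 14 of 18 and lower for 2 in MDA-MB-231 KO, and higher for 2 and lower for 8 of 18 in CT26 KO. As shares these were 77.8% and 11.1% in MDA-MB-231, beside 42.6% and 25.7% of all genes. In CT26 they were 11.1% and 44.4%, beside 22.3% and 33.5%. ATP5F1B, its catalytic beta subunit, averaged 1813 ± 108 FPKM in KO and 896 ± 46.2 FPKM in WT in MDA-MB-231 (1.02, adjusted p = 4.80e-07), and Atp5a1, the alpha subunit, averaged 426 ± 13.4 FPKM in KO and 645 ± 20.8 FPKM in WT in CT26 (-0.60, adjusted p = 2.56e-06). Centred on its window Atp5a1 was at -0.09 and did not pass (adjusted p = 0.0658). ATP5IF1, the inhibitor of the enzyme, was lower in both lines, by -0.56 in MDA-MB-231 and, as Atpif1, -0.37 in CT26. Citric acid cycle enzymes were higher for 11 of 13 and lower for 1 in MDA-MB-231 KO, and higher for 3 and lower for 9 of 13 in CT26 KO. Their shares were 84.6% and 7.69% in MDA-MB-231, and 23.1% and 69.2% in CT26. SUCLG2, a subunit of succinyl-CoA ligase, was at 1.34 in MDA-MB-231 and, as Suclg2, -0.35 in CT26, and the fumarase gene was at 0.78 as FH and -0.57 as Fh1, though Fh1 centred on its window was at -0.09 and did not pass (adjusted p = 0.0848). The electron carrier CYCS, the complex III haem protein CYC1 and the acyl carrier protein NDUFAB1 were all higher in MDA-MB-231 KO, at 0.52, 0.55 and 1.01, and in CT26 Cyc1 alone passed, as lower (-0.49).

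Regulators of mitochondrial genes were higher for 10 of 13 and lower for none in MDA-MB-231 KO, and higher for 1 and lower for 6 of 13 in CT26 KO. In MDA-MB-231 76.9% were thus higher, beside 42.6% of all genes. In CT26 7.69% were higher and 46.2% lower, beside 22.3% and 33.5% of all genes. TFAM, which packages mitochondrial DNA and starts its transcription, had 127, 130.4, 118 and 126 FPKM in the KO libraries, against 27.6, 33.1, 34.3 and 34.7 FPKM in the WT libraries, a log2 fold change of 1.93 (adjusted p = 8.35e-08). The mitochondrial transcription genes TFB2M and POLRMT rose by 1.55 and 1.22. In CT26 Tfam averaged 48.95 ± 2.19 FPKM in KO and 54.2 ± 3.67 FPKM in WT and did not pass (adjusted p = 0.0517), and the coactivator genes Pprc1 and Ppargc1b were lower, at -0.50 and -0.63. Centred on their windows neither passed, at -0.04 (adjusted p = 0.686) and -0.12 (adjusted p = 0.286). NRF1 did not pass in MDA-MB-231, at 0.20 (adjusted p = 0.0734), and YY1 was higher in both lines, at 0.65 and, as Yy1, 0.20. The KO and WT libraries of Yy1 overlapped in CT26, and no regulator passed as higher there once centred on its window.

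Of the 13 subunits encoded in mitochondrial DNA, 7 were lower in MDA-MB-231 KO, or 53.8%, beside 25.7% of all genes, and none was higher, beside 42.6%. MT-ND6 averaged 459 ± 112 FPKM in KO and 1621 ± 141 FPKM in WT (-1.85, adjusted p = 1.13e-05) and MT-ND5 478 ± 115 FPKM in KO and 1438 ± 92.3 FPKM in WT (-1.62, adjusted p = 1.90e-05). The sum of the 13 ranged more widely among the KO libraries, from 32902 to 58451 FPKM, than among the WT libraries, from 54219 to 63081 FPKM. In CT26 the estimates of 6 of these genes had failed, and of the other 7 mt-Nd1, mt-Nd2 and mt-Co1 were lower, at -0.82, -0.83 and -0.33. These made 42.9% of the tested ones, beside 33.5% of all genes.

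The median log2 fold changes of these lists in MDA-MB-231 and CT26, where those of all genes were 0.18 and -0.06, were 0.48 and -0.09 for complex I assembly factors, 0.47 and -0.14 for those of complexes II to IV, 0.39 and -0.09 for ATP synthase, 0.51 and -0.29 for the citric acid cycle, 0.70 and -0.23 for the regulators, and -0.46 and -0.26 for the mitochondrially encoded subunits. After upper-quartile scaling the counts of higher and lower genes in MDA-MB-231 were 10 and 0 for complex I assembly factors, 20 and 8 for those of complexes II to IV, 10 and 3 for ATP synthase, 9 and 1 for the citric acid cycle, 9 and 1 for the regulators, and 0 and 9 for the mitochondrially encoded subunits. In CT26 they were 3 and 2, 12 and 11, 4 and 8, 4 and 7, 1 and 5, and 0 and 2, in the same order. Centred on windows, the counts of higher and lower genes in MDA-MB-231 were 9 and 0, 19 and 4, 11 and 3, 7 and 0, 7 and 0, and 3 and 2, again in that order, and in CT26 they were 3 and 2, 10 and 9, 4 and 3, 1 and 8, 0 and 2, and 0 and 3. Of all genes centred on windows, 31.7% were higher and 31.1% lower in MDA-MB-231, and 22.1% and 22.5% in CT26. For the mitochondrially encoded subunits the MDA-MB-231 window is the mitochondrial chromosome itself, with 16 tested genes, and that of CT26, with 9, was below the minimum of 10 and was not centred.

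Among the rows that are not subunit genes, 9 of the 104 human pseudogenes reached the expression limit, and COX6A1P2, NDUFB9P2 and NDUFA5P11 were higher in KO, at 0.54, 1.36 and 0.62. Their parent genes were higher too, at 0.54, 1.21 and 0.43, and reads of a pseudogene and its parent may not be told apart. The readthrough NDUFC2-KCTD14 had 25.7, 39.2, 29.6 and 24.2 FPKM in the KO libraries, against 8.797, 8.14, 15.96 and 8.998 FPKM in the WT libraries (1.44 ± 0.22 (SE, adjusted p = 3.61e-04)) and shares exons with NDUFC2, which was at 0.25. Of the members tested, 26 of the 61 in the human table and 16 of the 60 in the mouse table lay in a locus that the authors' software had joined with other tested genes, and the labels do not state whether strand was used, so reads of overlapping genes may be mixed there. NDUFB2, NDUFB9, NDUFA9, SDHD and NDUFS1 in MDA-MB-231 and Ndufs1 and Ndufb11 in CT26 are among them.

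The authors' deposited table gave a q-value below 0.05 for 38 of the 61 tested members in MDA-MB-231, beside 8385 of all 14450 genes tested. In CT26 it did so for 32 of the 60, beside 5161 of all 11342 genes tested. Of these members 37 in MDA-MB-231 and 31 in CT26 also passed in limma.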

How the data were processed

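Total RNA of 16 libraries was measured by RNA sequencing. Per the submitters' processing notes, bcl2fastq 2.18, STAR 2.5.4a, Cufflinks 2.2.1 and Cuffdiff were used, with builds hg38 and mm10, while the labels name no annotation release or strand setting. The authors deposited FPKM values per gene and library, already normalized within each line, and a q-value per gene. Rows with a failed estimate, 13 in MDA-MB-231 and 210 in CT26, are listed at 0 and were left out. FPKM are not counts, so no count test was run, and depth was known only relative to WT replicate 1 of a line, from the most common ratio of values below 0.3 FPKM. Genes with at least 1 FPKM in at least 4 of 8 libraries were tested as log2(FPKM + 1), which understates changes of low genes, with limma 3.58.1 (R 4.3.3) with a mean-variance trend, two-sided, Benjamini-Hochberg adjusted over all genes of a line, threshold 0.05. Differences between lines were tested on gene pairs with limma's test against a 2-fold change. The fits were tested on simulated data. Promoters came from RefSeq (GRCh38.p14) and human gene coordinates from the GENCODE annotation of GRCh38; mouse coordinates are the loci of the deposited table.

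The members, pathway lists and tests were chosen with earlier results of these data known. Genes named in the text were the 4 largest rises and 3 largest falls per complex and line among those that passed, all of complex II, tested isoform pairs, the complex I core, UQCRFS1, UQCRC1 and UQCRC2, pairs that differ between lines, and up to 2 genes per list. Further genes were named after their values were seen, to give the members of a count. Some genes that this rule names are not reported here. Alternatives were other pseudocounts, filters and scalings, centring on 20 Mb windows, leaving out each library and a replicate block.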

Additional observations from a re-analysis of the deposited data

Results flagged for a closer look

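In 9 of 136 groups of 4 libraries of the named subunit genes 1 library lay far from the other 3, by the 95% critical value of Dixon's test on the gap to the nearest library. Chance flags about 1 in 20 such groups. In MDA-MB-231 these were COX4I1 in KO replicate 2, with 916 FPKM beside 785 to 807 FPKM, and NDUFS3 in WT replicate 2, with 192 FPKM beside 153 to 155 FPKM. In CT26 WT replicate 3 was low for Ndufb7 (88.1 FPKM beside 106 to 109 FPKM), Ndufa4 (837 FPKM beside 894 to 904 FPKM) and Ndufb9 (242 FPKM beside 269.8 to 275 FPKM), and WT replicate 4 was high for Cox7a2l (80.3 FPKM beside 72.6 to 73.7 FPKM). Among the CT26 KO libraries, replicate 4 was high for Ndufa3 (522 FPKM beside 497 to 500.2 FPKM) and low for Ndufa9 (74.5 FPKM beside 78.5 to 79.0 FPKM), and replicate 3 was low for Cox6a1 (593 FPKM beside 621 to 622 FPKM).

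The response to the knockout differed between the lines by more than 2-fold for 4 subunit genes, tested as the difference itself in limma: the MDA-MB-231 log2 fold change exceeded that of CT26 by 1.68 for NDUFS1, 1.42 for NDUFB9, 1.40 for NDUFA9 and 1.30 for SDHD. These 4 were 6.90% of the 58 pairs. Of all 8667 pairs 11.7% passed, 7.34% with the MDA-MB-231 response above, so the count does not set the subunit genes apart. Tables of the lines were normalized apart, and 1 of the 58 pairs passed after upper-quartile scaling, quantile normalization or centring on windows.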

How the results depend on the processing

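The counts of higher and lower subunit genes stayed within 1.5 times of those reported with a pseudocount of 0.1 or 5, with no filter or a stricter one and with a replicate block, and they ranged from 29 to 32 higher and 12 to 12 lower in MDA-MB-231, and from 8 to 9 higher and 27 to 29 lower in CT26, when each library was left out. Upper-quartile scaling gave 21 lower in MDA-MB-231 and 16 higher in CT26, quantile normalization 22 lower and 13 higher, and centring on windows 13 higher and 17 lower in CT26. The median of the members less that of all genes, 0.05 in MDA-MB-231, was 0.10 with a pseudocount of 5, 0.15 with no filter, -0.0098 with the stricter filter and -0.11 after quantile normalization, and 0.0061 to 0.087 when each library was left out, lowest without KO replicate 2. In CT26, where it was -0.086, it was -0.12 with no filter, -0.047 after quantile normalization and -0.039 after centring, and -0.10 to -0.0536 when each library was left out, nearest 0 without KO replicate 3. Pairs that differ between the lines by over 2-fold numbered 1 after upper-quartile scaling, quantile normalization or centring, 43 for a difference of any size, and 4 to 5 when each library was left out. CD274 in MDA-MB-231 passed as lower after upper-quartile scaling (-0.40, adjusted p = 0.0157), quantile normalization (-0.32, adjusted p = 0.0425) and centring (-0.36, adjusted p = 0.0286), and was -0.28 to -0.099 when each library was left out, with Cd274 at -0.70 to -0.63. Centring changed the sign of 12 MDA-MB-231 and 9 CT26 subunit genes. Of these, 5 and 3 had been called, namely COX6A1 (-0.019), COX7A2L (-0.046), NDUFB3, NDUFB8 and NDUFB11, and Ndufb3, Ndufb7 (-0.0045) and Sdhc (0.019). NDUFB3, NDUFB11 and Ndufb3 passed in both directions, and Ndufa4 (0.10, adjusted p = 0.0437), not called as reported, passed as higher. Upper-quartile scaling changed the sign of 12 and 8 genes, none called as reported, among them Cox6b1 (0.092). The causes were not tested.

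The labels do not state whether the replicate numbers pair the libraries. The deviations of same-numbered KO and WT libraries had correlations of -0.037 to 0.0044 in MDA-MB-231 and 0.027 to 0.078 in CT26. In CT26 each library correlated best with its own number, a hint from the data and not from the design, so pairing there is not settled. With a replicate block 32 members were higher and 12 lower in MDA-MB-231, and 9 and 28 in CT26. Ndufs8 lost its call (adjusted p = 0.0504), and of the mitochondrially encoded subunits 1 was higher and 6 lower in MDA-MB-231 and 6, in place of 3, were lower in CT26. The shallower MDA-MB-231 KO libraries limit precision at low FPKM, which touches few members.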
